A study of Mus musculus with 53 samples.

Results

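Glycolysis and hypoxia genes were followed in R1 mouse embryonic stem cells that differ in Tbx3, a T-box transcription factor of pluripotent cells. The 35 genes were taken from a list that holds the enzymes from glucose to lactate and known targets of the hypoxia-inducible factor, HIF. The bulk table of 11647 genes held 34 of them, all but Gapdh, and the single-cell table of 23235 names held all 35. Bulk RNA came from 5 populations, each with 1 library, grown in serum and LIF without feeders. In the allele set, N/N cells (Tbx3 -/-) had both Tbx3 alleles targeted, +/N cells (Tbx3 +/-) had 1, and +/+ cells were wild type. The hairpin set was made of wild-type cells that carried a short hairpin RNA targeting Tbx3 (shTbx3) or, as the control, luciferase (shLuc). The sources used here do not say whether a population was a single clone or which promoter drove the hairpins. The tables of 45 single cells and 1 pool came from wild-type R1 cells sorted as SSEA1+ and DAPI-, and Tbx3 sites were mapped in N/N cells that carried the biotin ligase BirA and tagged Tbx3.

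Glycolysis breaks glucose down to pyruvate in the cytosol, and lactate dehydrogenase then regenerates the cofactor that the path consumes. Pluripotent cells are known for a high glycolytic rate even with oxygen at hand. When oxygen is low, prolyl hydroxylases of the Egln family no longer mark the HIF alpha subunit for degradation, and HIF binds a short DNA core, ACGTG, near many of the genes described here. Its targets include nearly every glycolytic enzyme, as well as genes for mitophagy, collagen modification, blood vessel growth and the Egln enzymes themselves.

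Tbx3 itself was at 15.1 FPKM in N/N, 22.5 FPKM in +/N and 44.4 FPKM in +/+ cells, and at 5.09 FPKM in shTbx3, against 13.8 FPKM in shLuc cells. The table does not show which exons these fragments came from, or whether they cover the targeted part. FPKM relates fragments to the length of the transcript and to the library total, so levels of different genes can be set side by side. All 7 embryonic stem cell markers in the table were at 1 FPKM or more in every library. They summed to 1861 FPKM in N/N, 1882 FPKM in +/N and 2029 FPKM in +/+ cells. In the hairpin set the sums were 3434 FPKM in shTbx3 and 3194 FPKM in shLuc cells. Among the 7, Zfp42 differed the most in N/N against +/+ cells, with a log2 difference of -0.77. Dppa5a alone was higher there, by 0.31. Markers of other lineages also differed between the libraries that are compared. The 5 fibroblast markers in the table summed to 79.3 FPKM in N/N, 77.5 FPKM in +/N and 37.8 FPKM in +/+ cells, with all 5 at 1 FPKM or more in each. The 5 endoderm markers summed to 5.90 FPKM in N/N, 11.0 FPKM in +/N and 34.2 FPKM in +/+ cells. Lama1 made up most of each sum, at 3.40 FPKM in N/N, 6.64 FPKM in +/N and 21.3 FPKM in +/+ cells. Of the 5, 1 was at 1 FPKM or more in N/N, 4 in +/N and 5 in +/+ cells. The 3 trophectoderm markers summed to 314 FPKM in shTbx3, against 24.1 FPKM in shLuc cells. Most of this was keratin, with Krt8 at 167 FPKM and Krt18 at 140 FPKM in shTbx3, against 10.3 FPKM and 13.4 FPKM in shLuc cells. Hand1 was at 6.24 FPKM in shTbx3 and 0.414 FPKM in shLuc cells, and Cdx2 and Elf5 were not measured. The 4 primitive streak markers summed to 70.9 FPKM in shTbx3, against 2.33 FPKM in shLuc cells. The 4 immune markers summed to 6.08 FPKM in shTbx3 and 75.6 FPKM in shLuc cells. None of these listed markers was at 0 in any library except the fibroblast markers Postn and Lox in shLuc cells. The 2 sets of libraries are reported apart. Small RNA genes, picked by the start of their names, took up 19.7 to 22.9% of the summed FPKM in each allele library. The share was 5.63 to 7.46% in each hairpin library. The pick also takes in Snhg host genes and any name that begins with U and a digit, so not all need be small RNA.

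The highest members were enzymes of glycolysis, although others of the path, such as Eno2, Pgk1 and Pgam1, stood among or below the other hypoxia targets. Aldoa, which splits the hexose into trioses, ranked 30 to 35 among all 11647 genes in the 5 libraries. Pkm2, the last enzyme before pyruvate, ranked 23 to 49, and Ldha, which makes lactate, ranked 33 to 83. Pfkfb4, a regulator of phosphofructokinase, was the lowest member, with ranks between 10698 and 11144 and levels of 1.15 to 1.55 FPKM. Together the 34 members took up 1.41% of the summed FPKM in N/N, 1.32% in +/N and 1.16% in +/+ cells, and 1.11% in shTbx3 against 1.18% in shLuc cells.

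**Figure D1:**
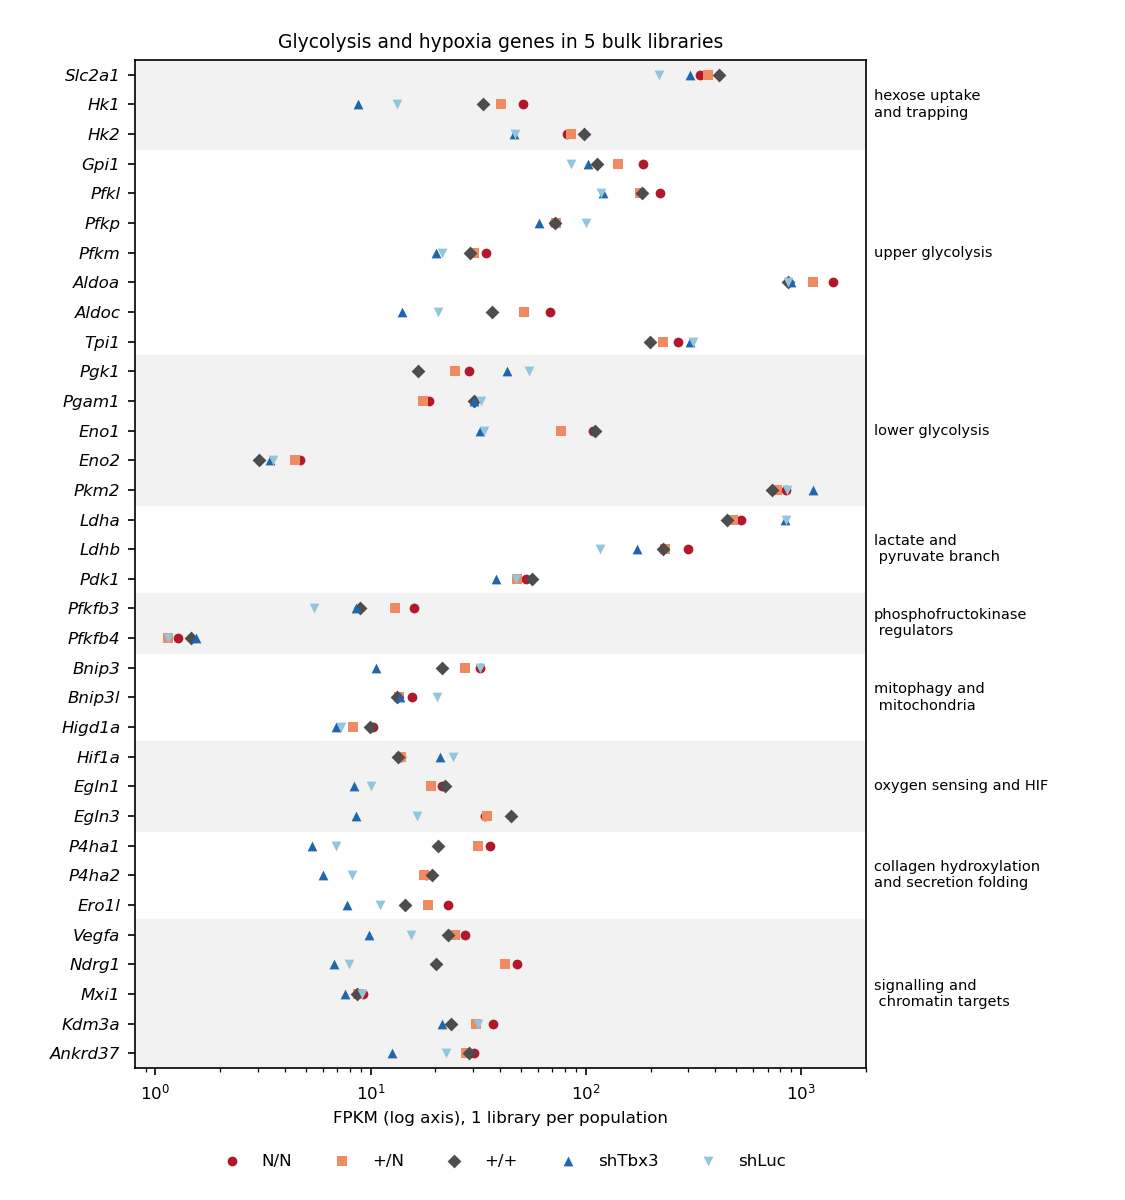
Level of each of 34 glycolysis and hypoxia genes in 5 bulk libraries, in FPKM on a log axis, grouped by role. Each symbol is 1 library, with N/N, +/N and +/+ from the allele set and shTbx3 and shLuc from the hairpin set. Aldoa, Pkm2 and Ldha stand at the right, and Pfkfb4 at the left.

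In the allele set 24 of 34 members were higher in N/N than in +/+ cells, against 46.0% of all 11478 genes compared, and the median log2 difference was 0.23 for the members and -0.03 for all genes. Differences are log2((a + 1)/(b + 1)) of FPKM throughout. Most were small. Only Ndrg1, a stress-induced gene known to respond to hypoxia, was 2-fold or more higher (background 1.37% of genes), and no member was 2-fold or more lower (background 1.92%). At 1.5-fold, 10 members were higher (background 5.45%) and 1, Pgam1, was lower (background 6.47%). With 1 library in each group, none of these differences has a replicate check. In bulk RNA, fewer cells of a type and less RNA per cell cannot be told apart.

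Ndrg1 (mm9, chr15:66760883-66801202, minus strand) was at 48.1 FPKM in N/N, 42.2 FPKM in +/N and 20.2 FPKM in +/+ cells. Both lines with a targeted allele thus stood well above the wild-type line and close to each other. The log2 difference was 1.21 in N/N and 1.03 in +/N cells, each against the same +/+ library, and 0.18 in N/N against +/N cells. The summed fibroblast markers had the same order of levels and a similar step between +/N and +/+ cells, and their part in the value of Ndrg1 was not tested.

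Hexose uptake and trapping gave mixed directions. Slc2a1, the glucose transporter of the plasma membrane, was at 338 FPKM in N/N, 371 FPKM in +/N and 416 FPKM in +/+ cells. Hk2, the hexokinase typical of embryonic and tumour cells, was at 81.7 FPKM in N/N, 85.2 FPKM in +/N and 97.6 FPKM in +/+ cells. Both were lowest in N/N, with log2 differences against +/+ cells of -0.30 for Slc2a1 and -0.25 for Hk2. Hk1, the hexokinase found in most tissues, was at 51.2 FPKM in N/N, 40.5 FPKM in +/N and 33.1 FPKM in +/+ cells, a log2 difference of 0.61 in N/N against +/+ cells. The hexokinases thus differed in opposite directions while their summed level varied little, at 133 FPKM in N/N, 126 FPKM in +/N and 131 FPKM in +/+ cells. Hk2 made up 61.5% of that sum in N/N, 67.8% in +/N and 74.7% in +/+ cells.

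In upper glycolysis, which turns glucose phosphate into trioses, 6 of 7 enzymes were higher in N/N than in +/+ cells (background 46.0%). Their median log2 difference was 0.44, against -0.03 for all genes. Aldoa was at 1409 FPKM in N/N, 1134 FPKM in +/N and 871 FPKM in +/+ cells, and its isozyme Aldoc, known from brain, was at 67.9 FPKM in N/N, 51.5 FPKM in +/N and 36.8 FPKM in +/+ cells. The 2 aldolases differed together, with log2 differences of 0.69 for Aldoa and 0.86 for Aldoc in N/N against +/+ cells, so that Aldoa kept 95.4 to 95.9% of the aldolase level in all 3 lines. Gpi1, which interconverts glucose and fructose phosphates, was at 185 FPKM in N/N, 142 FPKM in +/N and 113 FPKM in +/+ cells. Its log2 difference in N/N against +/+ cells was 0.72. Of the 26-base windows of the transcript, 55.1% in Gpi1 and 50.6% in Aldoa occur elsewhere in mm9, and for 100-base windows the shares are 9.39% in Gpi1 and 0% in Aldoa. The triose isomerase Tpi1 was at 268 FPKM in N/N, 229 FPKM in +/N and 198 FPKM in +/+ cells. Phosphofructokinase, the committed step of the path, differed less, with log2 differences in N/N against +/+ cells of 0.28 for Pfkl, 0.23 for Pfkm and -0.02 for Pfkp. The 7 enzymes summed to 2257 FPKM in N/N, 1837 FPKM in +/N and 1502 FPKM in +/+ cells.

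Pfkfb3 encodes the enzyme that makes the allosteric activator of phosphofructokinase. It was at 15.99 FPKM in N/N, 12.9 FPKM in +/N and 8.95 FPKM in +/+ cells, and its log2 difference in N/N against +/+ cells was 0.77. Pfkfb4 stayed within 1.15 to 1.46 FPKM in the 3 lines.

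The enzymes of lower glycolysis, from the trioses to pyruvate, did not share a direction. Pgk1, which makes the first ATP of the path, was at 28.6 FPKM in N/N, 24.8 FPKM in +/N and 16.7 FPKM in +/+ cells. Pgam1, which shifts the phosphate of its product, was at 18.8 FPKM in N/N, 17.5 FPKM in +/N and 30.2 FPKM in +/+ cells, and it was the single member 1.5-fold or more lower, with log2 differences of -0.66 in N/N and -0.75 in +/N cells against the same +/+ library. Both genes have near-identical copies in the genome. Of the 26-base windows of the transcript, 94.3% in Pgk1 and 94.5% in Pgam1 occur elsewhere in mm9, as do 89.8% of 100-base windows in Pgk1 and 87.1% in Pgam1, so the reads of these genes could have been shared with copies. Eno1, the main enolase, was at 108 FPKM in N/N, 76.5 FPKM in +/N and 110 FPKM in +/+ cells, lowest in the heterozygous line, and 78.6% of its 26-base windows occur elsewhere. Pkm2 was at 856 FPKM in N/N, 776 FPKM in +/N and 735 FPKM in +/+ cells.

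At the branch between lactate and mitochondria, Ldha was at 528 FPKM in N/N, 484 FPKM in +/N and 455 FPKM in +/+ cells. Ldhb, the isozyme known to favour pyruvate, was at 300 FPKM in N/N, 233 FPKM in +/N and 228 FPKM in +/+ cells. The share of Ldha in their sum was 63.8% in N/N, 67.5% in +/N and 66.6% in +/+ cells. Pdk1, the kinase that holds pyruvate out of the citric acid cycle, was at 52.5 FPKM in N/N, 48.1 FPKM in +/N and 55.99 FPKM in +/+ cells.

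Without the enzymes of this path, Slc2a1 and Hif1a, 16 hypoxia targets remain, Pdk1 among them. Of these, 11 were higher in N/N than in +/+ cells (background 46.0%), and their median log2 difference was 0.15. The 16 enzymes measured gave 12 higher and a median of 0.34, against a median of -0.03 for all genes. P4ha1, a catalytic subunit of the hydroxylase that stabilises collagen, was at 36.0 FPKM in N/N, 31.7 FPKM in +/N and 20.5 FPKM in +/+ cells. Its isozyme P4ha2 was at 18.1 FPKM in N/N, 17.8 FPKM in +/N and 19.4 FPKM in +/+ cells, and so the share of P4ha1 in the pair was 66.6% in N/N, 64.1% in +/N and 51.5% in +/+ cells. These genes are also active in collagen-making cells, whose markers differed as given above, and their part was not tested. Ero1l, an oxidase of protein folding in the endoplasmic reticulum, was at 22.99 FPKM in N/N, 18.4 FPKM in +/N and 14.4 FPKM in +/+ cells.

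Kdm3a, a histone demethylase, was at 37.3 FPKM in N/N, 30.97 FPKM in +/N and 23.6 FPKM in +/+ cells, and the mitophagy receptor gene Bnip3 was at 32.2 FPKM in N/N, 27.5 FPKM in +/N and 21.5 FPKM in +/+ cells. The log2 difference in N/N against +/+ cells was 0.64 for Kdm3a and 0.56 for Bnip3. The other targets of signalling and chromatin differed less, with log2 differences of 0.26 for the growth factor gene Vegfa, 0.08 for the Myc antagonist gene Mxi1 and 0.07 for Ankrd37, an ankyrin repeat gene.

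RNA of the oxygen-sensing genes showed little or no rise, and protein levels were not measured. Hif1a, which encodes the HIF alpha subunit, was at 13.8 FPKM in N/N, 13.9 FPKM in +/N and 13.5 FPKM in +/+ cells. Egln3, an oxygen-sensing hydroxylase that is itself a HIF target, was at 33.9 FPKM in N/N, 34.6 FPKM in +/N and 45.2 FPKM in +/+ cells, a log2 difference of -0.40 in N/N against +/+ cells. Egln1 had a log2 difference of -0.05.

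The +/N line was nearer to +/+ than N/N was. The median log2 difference in +/N against +/+ cells was 0.05 for members and -0.10 for all genes. Well-expressed genes, those with at least 5 FPKM on both sides, had a median of -0.12 here, and relative to that shift 25 of 34 members were higher (background 52.8%). Ndrg1 was again the only member 2-fold or more higher (background 0.698%), and no member was 2-fold or more lower (background 1.21%). At 1.5-fold Ndrg1 and P4ha1 were higher (background 2.44%) and Pgam1 was lower (background 4.91%). With the shift set to 0 the member median was 0.17 and 5 members were 1.5-fold or more higher, against 3.95% of all genes on that scale.  In N/N against +/N cells no member differed by 2-fold (background 0.317% higher and 0.308% lower) or by 1.5-fold (background 0.977% higher and 0.801% lower), and 29 were higher by any amount (background 68.1%). Rescaled without small RNA genes, 22 were higher, against 37.1% of all genes, and the member median was 0.04 in place of 0.18.

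Across the 3 lines 20 of 34 members had the order N/N above +/N above +/+, against 25.4% of all genes. The reverse order was seen for Hk2, Slc2a1 and Egln3, against 22.5% of all genes, and the other 11 members had neither. The order rests on the same 3 libraries as the differences above. Without the 10 members that have at least 50% of 26-base windows elsewhere in the genome, 16 of 24 were higher in N/N than in +/+ cells (background 46.0%) and 6 were 1.5-fold or more higher (background 5.45%).

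**Figure D2:**
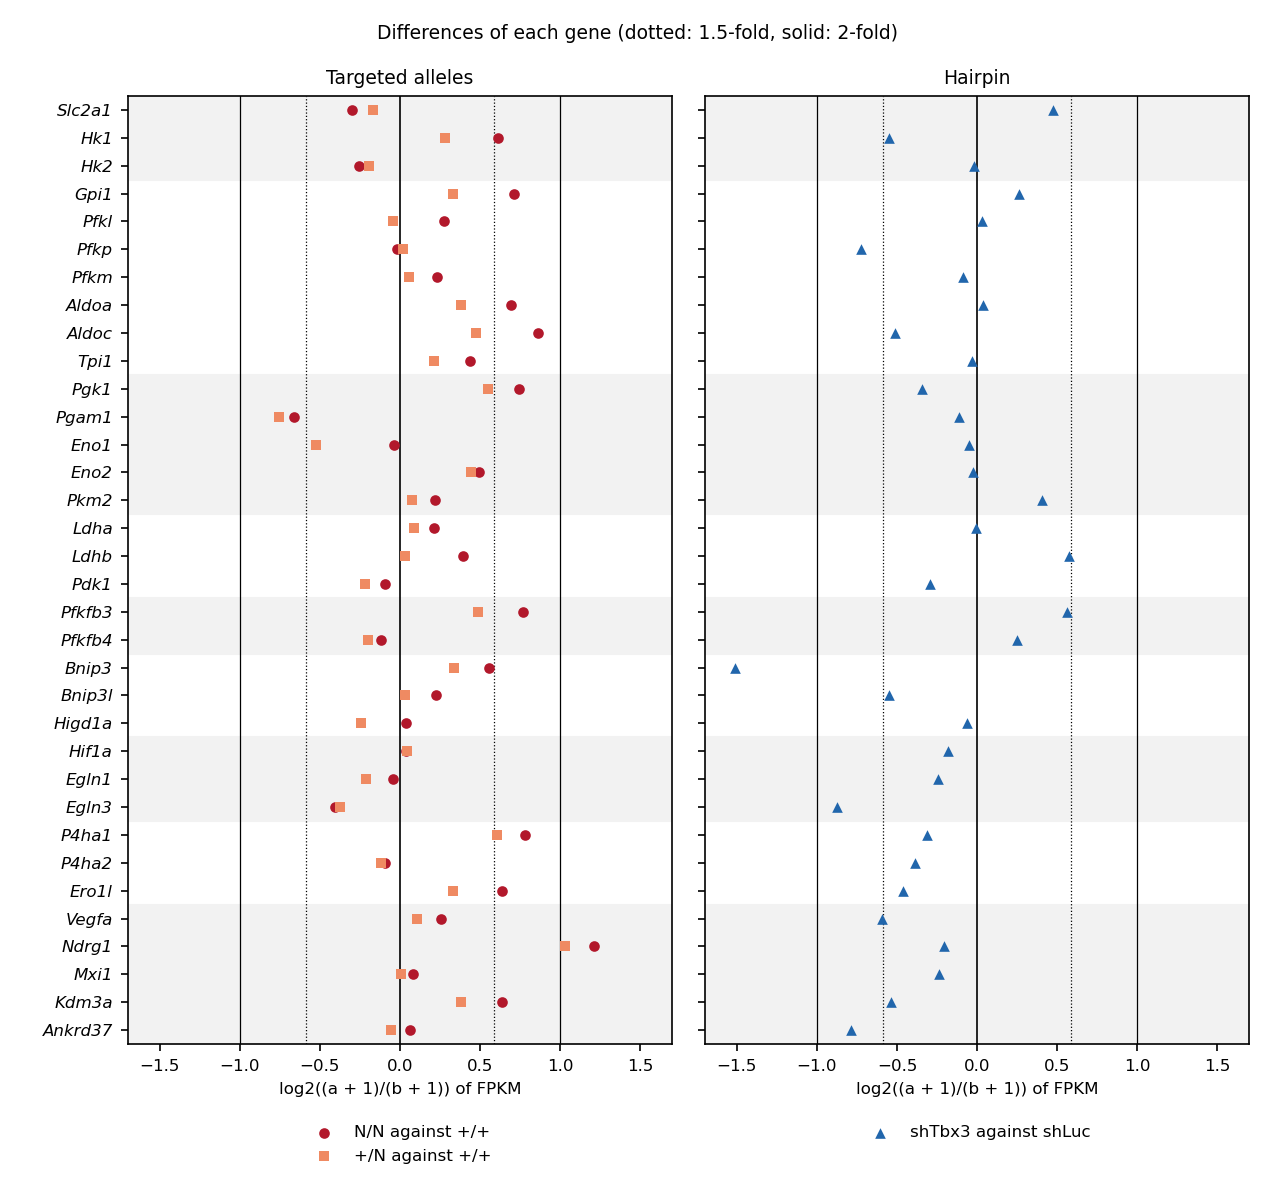
Difference of each gene as log2((a + 1)/(b + 1)) of FPKM, with N/N and +/N against +/+ on the left and shTbx3 against shLuc on the right. Each symbol compares 2 libraries, dotted lines mark 1.5-fold and solid lines 0 and 2-fold. Ndrg1 lies at 1.21 for N/N and Bnip3 at -1.51 for shTbx3, and most hypoxia targets in the lower part lie left of 0 for shTbx3.

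The hairpin set gave the opposite balance. In shTbx3 against shLuc cells 26 of 34 members were lower (background 35.5%) and 8 were higher (background 64.5%). The median log2 difference was -0.19 for the members and 0.14 for all genes. Well-expressed genes had a median of 0.16, and relative to that shift 28 members were lower (background 51.8%). Bnip3 was the only member 2-fold or more lower (background 0.987%), and none was 2-fold or more higher (background 2.81%). At 1.5-fold Bnip3, Egln3, Ankrd37, Pfkp and Vegfa were lower (background 3.73%), and no member was higher (background 12.7%). With the shift set to 0, the member median was -0.35, Bnip3 and Egln3 were 2-fold or more lower and 10 members were 1.5-fold or more lower, against 7.27% of all genes on that scale.

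Bnip3 (mm9, chr7:146082519-146101202, minus strand) was at 10.7 FPKM in shTbx3, against 32.2 FPKM in shLuc cells, a log2 difference of -1.51. Of the 26-base windows of its transcript 81.1% occur elsewhere in mm9, and 28.8% of 100-base windows do, so part of its reads could have been shared with copies. The related mitophagy receptor gene Bnip3l was at 13.6 FPKM in shTbx3 and 20.4 FPKM in shLuc cells, a log2 difference of -0.55. Higd1a, a gene of the mitochondrial inner membrane, was at 6.91 FPKM in shTbx3 and 7.28 FPKM in shLuc cells.

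The 250 bases upstream of the annotated start of Bnip3 (RefSeq, GRCm38.p6, chr7:138909507-138909756, minus strand) are printed because Bnip3 was the only member called in the hairpin set and these bases hold the HIF core. The core was searched as ACGTG on both strands, and the capitals mark the palindrome CACGTG, which holds it on either strand.

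Bnip3 promoter: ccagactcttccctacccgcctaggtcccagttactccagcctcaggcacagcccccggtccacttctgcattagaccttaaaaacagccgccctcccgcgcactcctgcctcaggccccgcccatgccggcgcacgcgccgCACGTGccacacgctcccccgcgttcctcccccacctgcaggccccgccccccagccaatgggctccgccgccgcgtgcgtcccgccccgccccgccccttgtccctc

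RefSeq promoters were matched for 33 of the 35 members, and 19 of the 33 (57.6%) held ACGTG in the 250 bases upstream of a start, against 26.2% of 8204 genes of the bulk table and 18.5% of 27025 genes with an entry. The members were listed as HIF targets, so this share describes the list. CACGTG was in 15.2% of the members, against 10.5% of bulk-table genes.

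Among the HIF genes and hydroxylases, Egln3 was at 8.57 FPKM in shTbx3, against 16.5 FPKM in shLuc cells, a log2 difference of -0.87. Egln1 was at 8.38 FPKM in shTbx3 and 10.1 FPKM in shLuc cells, and Hif1a at 21.1 FPKM in shTbx3 and 24.1 FPKM in shLuc cells. All 3 were lower (background 35.5%), and Egln3 by the most. The share of Egln3 in the sum of both hydroxylases was 50.6% in shTbx3, against 62.05% in shLuc cells.

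All 5 targets of signalling and chromatin were lower in shTbx3 cells (background 35.5%), with a median log2 difference of -0.54. Ankrd37 was at 12.6 FPKM in shTbx3 and 22.4 FPKM in shLuc cells, Vegfa at 9.84 FPKM in shTbx3 and 15.4 FPKM in shLuc cells, and Kdm3a at 21.4 FPKM in shTbx3 and 31.5 FPKM in shLuc cells. The log2 difference was -0.78 for Ankrd37, -0.59 for Vegfa and -0.54 for Kdm3a. Ndrg1, the gene called in the allele set, was at 6.76 FPKM in shTbx3 and 7.93 FPKM in shLuc cells, a log2 difference of -0.20. The 3 genes of collagen hydroxylation and secretion folding were lower as well, by log2 differences from -0.46 to -0.32, with P4ha1 at 5.33 FPKM in shTbx3 and 6.88 FPKM in shLuc cells.

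In all, 14 of the 16 hypoxia targets outside the enzyme path, counted with Pdk1 but without Slc2a1 and Hif1a, were lower in shTbx3 cells (background 35.5%). Their median log2 difference was -0.35, against 0.14 for all genes. The exceptions were Pfkfb3, at 8.53 FPKM in shTbx3 and 5.46 FPKM in shLuc cells, and Pfkfb4, at 1.55 FPKM in shTbx3 and 1.15 FPKM in shLuc cells. The streak and trophectoderm markers (the latter mostly keratins), high in shTbx3 cells, and the immune markers, high in shLuc cells, also differed in this pair. Their part was not tested.

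The 16 measured enzymes from hexokinase to lactate dehydrogenase differed less, with 11 lower (background 35.5%). Their median log2 difference was -0.03, against 0.14 for all genes. Aldoa was at 896 FPKM in shTbx3 and 874 FPKM in shLuc cells, Ldha at 843 FPKM in shTbx3 and 848 FPKM in shLuc cells, and Hk2 at 46.2 FPKM in shTbx3 and 46.8 FPKM in shLuc cells. These abundant enzymes were nearly level in FPKM, which places them below the median shift of 0.16 of well-expressed genes. The minor isozymes Hk1 and Aldoc were lower, with Hk1 at 8.71 FPKM in shTbx3 and 13.2 FPKM in shLuc cells and Aldoc at 14.0 FPKM in shTbx3 and 20.5 FPKM in shLuc cells.

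Pfkp, the platelet type of phosphofructokinase, was at 60.3 FPKM in shTbx3 and 100.4 FPKM in shLuc cells, a log2 difference of -0.73. Pfkl, the liver type, was at 120 FPKM in shTbx3 and 118 FPKM in shLuc cells, and its share of the family was 59.9% in shTbx3, against 49.2% in shLuc cells. The makeup of phosphofructokinase thus differed through Pfkp in the hairpin pair, whereas in the allele set Pfkp was at 70.95 FPKM in N/N, 73.02 FPKM in +/N and 71.97 FPKM in +/+ cells.

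Only 8 members were higher in shTbx3 cells. Ldhb was at 173 FPKM in shTbx3 and 116 FPKM in shLuc cells, Slc2a1 at 304 FPKM in shTbx3 and 218 FPKM in shLuc cells, and Pkm2 at 1139 FPKM in shTbx3 and 861 FPKM in shLuc cells. The log2 difference was 0.57 for Ldhb, 0.47 for Slc2a1 and 0.40 for Pkm2, each above the median shift of 0.16 but under 1.5-fold. The share of Ldha among the lactate dehydrogenases was 82.9% in shTbx3, against 88.0% in shLuc cells.

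**Figure D3:**
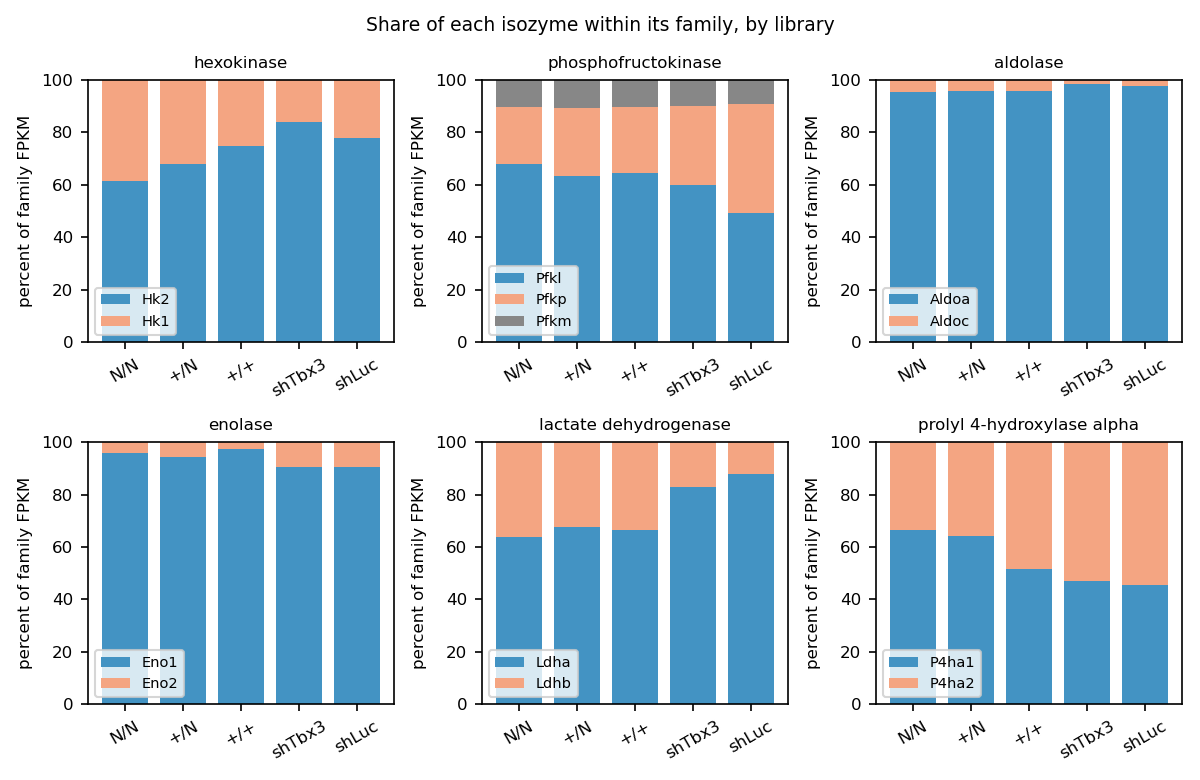
Share of each isozyme in the summed FPKM of its family, in percent, for 6 families and 5 libraries of 1 sample each. Hk2 takes 61.5% in N/N and 74.7% in +/+ cells, and Pfkp takes 30.01% in shTbx3 and 41.9% in shLuc cells.

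Set side by side, the allele and hairpin sets gave the same sign for 14 of 34 members (41.2%), against 45.4% of genes, a share near the background. Of the 34 members 18 were higher in N/N than in +/+ cells and lower in shTbx3 than in shLuc cells, against 18.1% of genes. Slc2a1 and Pfkfb4 had the reverse pair of signs, below +/+ in N/N and above shLuc in shTbx3 cells (background 36.5%). Gpi1, Pfkl, Aldoa, Pkm2, Ldhb and Pfkfb3 were higher in N/N and in shTbx3 cells (background 28.1%), and 8 were lower in both (background 17.3%). The sets share no library, and whether they differ was not tested.

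Genes of the pathway beyond the members were read from the same table. Of 13 other HIF pathway regulators, none was called at 2-fold in any comparison, where 0.308 to 2.81% of all genes are called in each direction. At 1.5-fold the only call was Epas1, the gene of another HIF alpha subunit, lower in N/N than in +/+ cells (7.69%, background 6.47%). Epas1 was at 11.0 FPKM in N/N, 13.5 FPKM in +/N and 18.7 FPKM in +/+ cells. Of 34 other hypoxia targets in the table, 3 (8.82%, background 1.37%) were 2-fold or more higher in N/N than in +/+ cells and none was lower (background 1.92%). At 1.5-fold 9 were higher (26.5%, background 5.45%) and 3 were lower (8.82%, background 6.47%). Ddit4, an inhibitor of mTOR signalling, was at 272 FPKM in N/N, 208 FPKM in +/N and 110 FPKM in +/+ cells. Bhlhe40, a transcriptional repressor, was at 89.0 FPKM in N/N, 66.1 FPKM in +/N and 40.6 FPKM in +/+ cells. Adm, which encodes the peptide hormone adrenomedullin, was at 9.19 FPKM in N/N, 9.34 FPKM in +/N and 3.05 FPKM in +/+ cells and was also called in +/N cells. All 3 were named for being 2-fold or more higher in N/N than in +/+ cells, as Ndrg1 was. A line with a targeted allele was therefore bound to be the highest. The median of the whole list, however, was 0.11.

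Of 33 genes of the same list measured in the hairpin pair, 3 (9.09%, background 2.81%) were 2-fold or more higher in shTbx3 than in shLuc cells and none was lower (background 0.987%). Pdgfb, a growth factor gene, was at 9.04 FPKM in shTbx3 and 2.13 FPKM in shLuc cells, Cited2, a competitor of HIF for its coactivators, at 45.6 FPKM in shTbx3 and 13.5 FPKM in shLuc cells, and the metallothionein gene Mt1 at 336 FPKM in shTbx3 and 148 FPKM in shLuc cells. They went against the direction of most members. Among 12 other glycolytic isoforms and side enzymes, 1 was called, Pfkfb2, higher in N/N than in +/+ cells (8.33%, background 1.37%). Pfkfb2 was at 5.69 FPKM in N/N, 4.09 FPKM in +/N and 2.33 FPKM in +/+ cells.

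Tbx3 sites lay within 20 kb of the start of 6 of 35 members (17.1%), against 14.9% of 11431 placed genes of the bulk table, so the share is near the background. The 6 were Eno1, Pkm2, Ldhb, Slc2a1, Pdk1 and Kdm3a. Scores are those the authors deposited, from 50.01 to 791.25 with a median of 76.65 over 3078 sites. Eno1 had 2 sites, the stronger of which began 1 base past its start (score 103.78) and the other 5610 bases upstream, by its centre (score 75.28). A site at Pkm2 spanned the start (score 86.9), and a site at Ldhb had its centre 5134 bases upstream (score 118.49). The other 3 had scores below the median. They lay at chr4:118778234-118778897 (Slc2a1, score 58.51, centre 2751 bases upstream), chr2:71704689-71705141 (Pdk1, score 67.81, centre 6366 bases upstream) and chr6:71576039-71576409 (Kdm3a, score 52, within the gene and outside exons). The farthest site counted, at Kdm3a, lay 6490 bases from the start, and the nearest left out lay 25130 bases from the start of Egln3 (score 165.37).

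Stretches of the 3 highest-scoring sites within 20 kb of a member are printed, since they lie at or close to the start of an abundant enzyme. Each was chosen outside annotated exons to hold the most matches, so the matches are not evenly sampled from the site. They are from mm9, plus strand, and cover the intronic part of the Eno1 site (chr4:149611450-149611662), the part of the Pkm2 site upstream of the first exon (chr9:59503753-59504052) and the centre of the Ldhb site between genes (chr6:142461461-142461760). Capitals mark the HIF core ACGTG, with the leading C where it forms CACGTG, and the T-box core GGTGTGA, each on either strand.

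Eno1 site: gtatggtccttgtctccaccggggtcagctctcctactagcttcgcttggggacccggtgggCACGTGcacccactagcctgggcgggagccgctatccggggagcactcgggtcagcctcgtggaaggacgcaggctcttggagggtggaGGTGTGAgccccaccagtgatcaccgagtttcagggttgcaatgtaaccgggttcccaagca

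Pkm2 site: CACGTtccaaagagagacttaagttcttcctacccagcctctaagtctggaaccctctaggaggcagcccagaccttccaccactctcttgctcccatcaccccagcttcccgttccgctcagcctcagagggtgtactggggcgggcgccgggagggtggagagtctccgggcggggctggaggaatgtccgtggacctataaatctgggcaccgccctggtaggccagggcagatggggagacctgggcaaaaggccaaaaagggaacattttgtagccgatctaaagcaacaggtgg

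Ldhb site: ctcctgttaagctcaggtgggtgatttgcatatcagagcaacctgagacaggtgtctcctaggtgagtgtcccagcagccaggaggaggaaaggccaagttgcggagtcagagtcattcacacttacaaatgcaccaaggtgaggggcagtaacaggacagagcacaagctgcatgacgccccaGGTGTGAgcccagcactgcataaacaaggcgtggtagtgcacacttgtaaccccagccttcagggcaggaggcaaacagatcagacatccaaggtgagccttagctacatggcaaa

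The Eno1 stretch held both cores, the Ldhb stretch GGTGTGA alone and the Pkm2 stretch ACGTG alone. The central 300 bases of the Eno1 and Pkm2 sites held neither core, and those of the Ldhb site held GGTGTGA. Over the central 300 bases of all sites, GGTGTGA was found in 10.0% and ACGTG in 14.8%, and over whole sites of 700 to 950 bases, the size of those at Eno1 and Pkm2, GGTGTGA was found in 16.5% and ACGTG in 47.3%. A match describes letters and not binding. The genes near sites did not share a direction, with log2 differences in N/N against +/+ cells of -0.03 for Eno1, 0.22 for Pkm2, 0.40 for Ldhb, -0.30 for Slc2a1, -0.09 for Pdk1 and 0.64 for Kdm3a. In shTbx3 against shLuc cells they were -0.05 for Eno1, 0.40 for Pkm2, 0.57 for Ldhb, 0.47 for Slc2a1, -0.30 for Pdk1 and -0.54 for Kdm3a. Ndrg1 and Bnip3 had no site within 20 kb.

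In single cells the profile departed from that of the pool, also for some markers of the cell type. Pou5f1 was at 1 FPKM or more in only 11 of 45 cells, against 1370 FPKM in the pool, and Sall4 had a median of 3241 FPKM in the cells and 72.4 FPKM in the pool. Nanog was found in 12 cells, Esrrb in 27 and Sox2 in 35. Zfp42 and Dppa5a were found in all 45 cells and were close to the pool. Their medians were 518 FPKM for Zfp42 and 1866 FPKM for Dppa5a, against 502 and 1800 FPKM in the pool. Cells had 1642 to 3295 genes at 1 FPKM or more, and the pool had 11678. No 2 cells had identical values. The header lists the cells in 2 runs of rising cell numbers, of 23 and 22 cells, which are used below as a check. Cells of 1 culture are not replicates, and no condition is compared here.

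Only 3 of 35 members, Hk2, Aldoa and Pkm2, were at 1 FPKM or more in all 45 cells, against 1.75% of genes at 1 FPKM or more in the pool. The exact 95% interval for such a share is 92.1 to 100%. In at least 23 cells 12 members were found, against 13.3% of those genes. Detection followed the level in the pool: at 100 FPKM or more there, members were found in a median of 30 cells and all genes in 32, and between 10 and 100 FPKM in a median of 9.5 and 7 cells.

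Aldoa ran from 2.43 to 5707 FPKM with a median of 1435 FPKM over cells, close to the pool at 1635 FPKM. Pkm2 ran from 20.2 to 1487 FPKM with a median of 259 FPKM, and the pool at 1412 FPKM lay above all cells but 1. Hk2 was the reverse, with 1.09 to 2664 FPKM, a median of 603 FPKM and 87.2 FPKM in the pool, so that 37 of 45 cells were at or above the pool. Ldha was at 1 FPKM or more in 44 cells, with a median of 660 FPKM and 1042 FPKM in the pool.

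Many members were seen in part of the cells, with a wide range among those. Slc2a1 was found in 26 of 45 cells, with a median of 21.6 FPKM over those cells and a highest cell of 560 FPKM, against 390 FPKM in the pool, which 3 cells reached. Tpi1 was found in 25 cells, with a median of 169 FPKM over those cells and a highest cell of 1116 FPKM, against 330 FPKM in the pool. Bnip3 was found in 20 cells (44.4%, exact 95% interval 29.6 to 60.0%), with a highest cell of 731 FPKM and 15.5 FPKM in the pool. Hif1a was found in 18 cells, with a median of 35.8 FPKM over those cells.

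Other members were nearly unseen in cells. Ndrg1 and Eno2, the neuronal enolase, were each found in 0 of 45 cells, with an upper 95% bound of 7.87%, against 7.71 FPKM of Ndrg1 and 2.39 FPKM of Eno2 in the pool. Hk1 was found in 3 cells and never above 3.87 FPKM, although the pool held 24.97 FPKM. Egln3, P4ha2, Pfkfb3, Pfkfb4 and Ankrd37 were each found in 1 cell. Gapdh, the triose phosphate dehydrogenase, was found in 4 cells and was at 2.65 FPKM in the pool, and 86.2% of its 26-base windows and 85.1% of its 100-base windows occur elsewhere in mm9.

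The isozyme at the higher level was the same in every cell for some steps and not for others. Hk2 exceeded Hk1 and Aldoa exceeded Aldoc in 45 of 45 cells, and Ldha exceeded Ldhb in 39. Ldhb was at 1 FPKM or more in 30 cells and reached 792 FPKM. For phosphofructokinase, 11 cells had Pfkp alone at 1 FPKM or more, 5 had Pfkl alone, 6 had both and 23 had neither, whereas the pool held 134 FPKM of Pfkp and 148 FPKM of Pfkl.

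**Figure D4:**
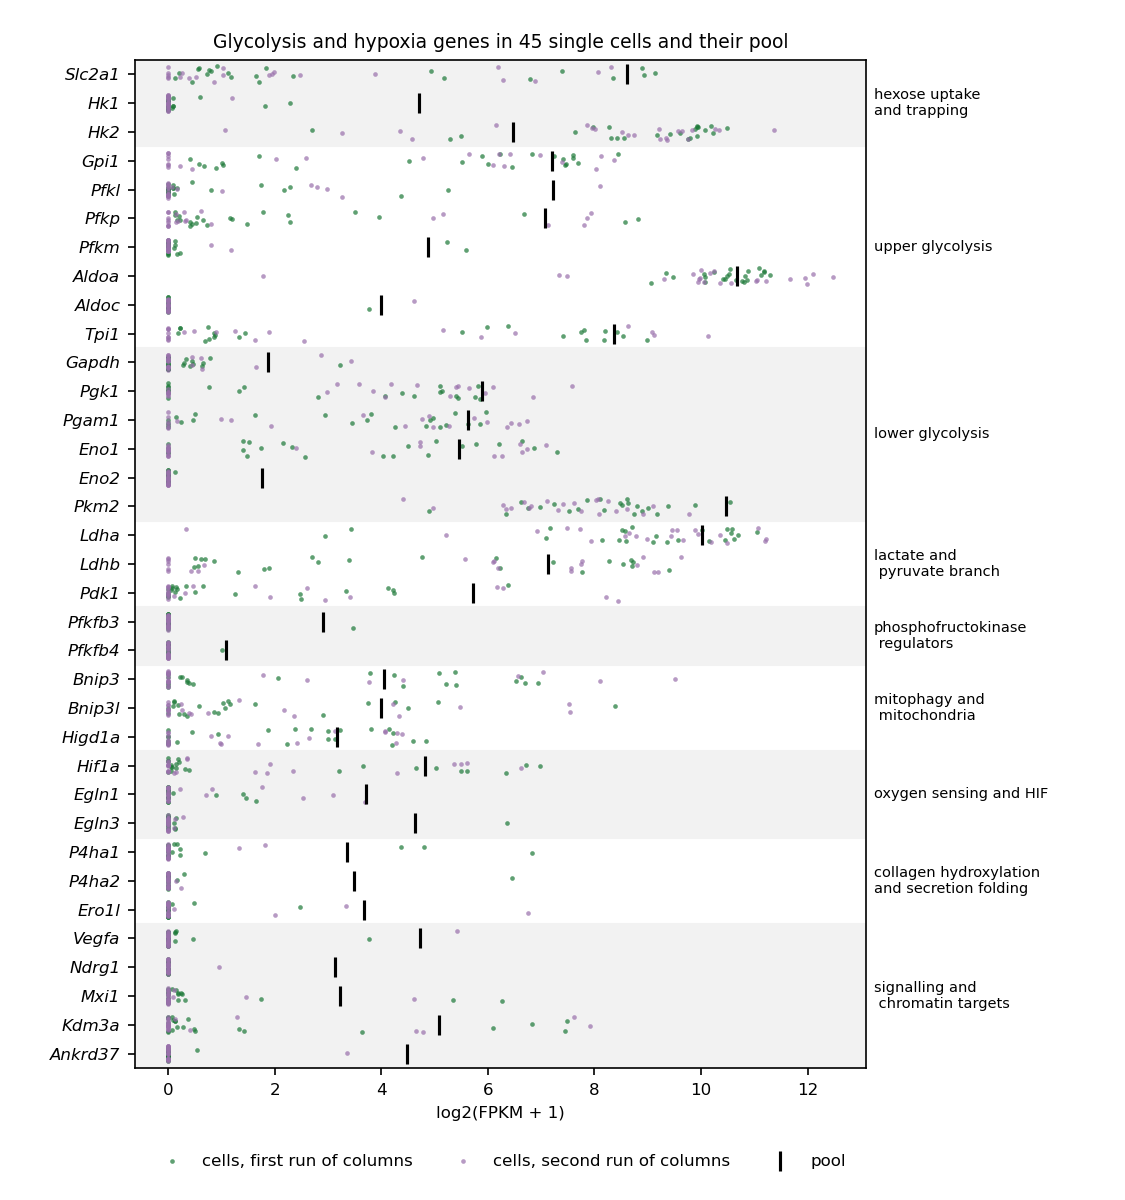
Level of each of 35 genes in 45 single cells (dots, coloured by run of columns) and in their pool (black bar), as log2(FPKM + 1). Aldoa, Pkm2 and Hk2 are above 0 in every cell, and Ndrg1, Eno2, Hk1 and most hypoxia targets lie at or near 0 in most cells, left of their pool value.

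Pairs of members were correlated from cell to cell about as weakly as pairs of all genes. Over 45 cells that share a table, a scaling and differing numbers of genes detected, 153 pairs of 18 members found in at least 12 cells had a median rank correlation (Spearman's rho) of 0.06. Over all pairs of the 3062 genes found in at least 12 cells the median was 0.04. Of the member pairs 11 (7.19%) were above 0.3, against 5.26% of all pairs, and none was below -0.3, against 1.52%. In both runs as well, 3 (1.96%) were above 0.3, against 0.949%. Slc2a1 and Hif1a had a rho of 0.51 (0.43 and 0.56 within the runs), Bnip3l and Higd1a 0.45 (0.50 and 0.41), and Pkm2 and Bnip3 0.32 (0.38 and 0.30). Slc2a1 had a rho of 0.53 with the number of genes detected in the cell, and its pairs share that. Per cell 6 to 18 members were found, with a median of 12, and they took up 0.27 to 1.81% of the summed FPKM of the cell, against 1.17% in the pool.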

How the data were processed

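The deposited bulk values are FPKM (fragments scaled by transcript length and library total). The submitters' processing notes name TopHat, Cufflinks and Cuffdiff, with mm9 as the build. Single-cell values are FPKM that the authors scaled with TopHat and Cuffnorm, per the same notes, so levels are not compared between the tables. FPKM is relative to each library's own total. Each site carries the deposited peak score; the submitters' processing notes name Bowtie 1.0 and HOMER for these data, and the sources used here do not say which tool gave the score. Read depth, and which bulk library was read at which length, are also not given there.

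For each pair of libraries log2((a + 1)/(b + 1)) was computed with a pseudocount of 1 over genes that reached 1 FPKM in either library, which understates changes of low genes. Every bulk group is 1 library, so no p-value was computed. A gene was found in a cell at 1 FPKM or more, and shares of cells have exact Clopper-Pearson 95% intervals, which cover counting error over cells only. Sites were placed on the GENCODE annotation of mm9, and a distance runs from site edge to gene start, within 20 kb. Members called at 2-fold or near a site were named with all their values, and so were pathway genes called at 2-fold with 5 FPKM or more; the role of other members decided whether they are given in full. The members and lists were chosen with earlier results of these data known. Alternatives changed the pseudocount, fold, filter, scaling, window, score and run of columns. The calculations were run in Python 3.11.15 with numpy 2.4.6, pandas 2.3.3 and scipy 1.17.1. Bulk differences and 2-fold calls were tested on simulated libraries with known changes larger than 2-fold, and the other calculations were not.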

Additional observations from a re-analysis of the deposited data

Results flagged for a closer look

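Bnip3, the mitophagy receptor, and Ndrg1, a stress-induced gene, differed in opposite directions in the allele and hairpin sets. The log2 difference of Bnip3 was 0.56 in N/N against +/+ cells and -1.51 in shTbx3 against shLuc cells. For Ndrg1 it was 1.21 in N/N against +/+ cells and -0.20 in shTbx3 against shLuc cells. Each value compares a pair of libraries, and the difference between the sets was not tested.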

How the results depend on the processing

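Of the counts recomputed under other settings, 133 stayed within 1.5 times their value and 27 did not, and no result changed sign. At 1.5-fold in place of 2-fold, the counts called higher were 10 in N/N and 2 in +/N cells against +/+ cells, those called lower were 1 in each, and 5 were lower in shTbx3 than in shLuc cells. A pseudocount of 5 left 0 members 2-fold and 1 member 1.5-fold higher in +/N cells, where Ndrg1 had 0.91, and 0 members 1.5-fold lower in N/N cells. A pseudocount of 0.1 gave 1 member 1.5-fold higher in shTbx3 cells. Centring on well-expressed genes (5 FPKM or more), or rescaling without small RNA genes, gave 5 members 1.5-fold higher in +/N cells, and in shTbx3 cells 2 members 2-fold and 10 members 1.5-fold lower. These 2 scalings moved the median of all genes by over 0.1 in the +/N against +/+ and shTbx3 against shLuc comparisons, and the rescaling did so in N/N against +/N. The member median was 0.17 and 0.16 in +/N against +/+, in place of 0.05, and -0.35 and -0.38 in shTbx3 against shLuc, in place of -0.19. Rescaled without small RNA genes, it was 0.04 in N/N against +/N, in place of 0.18.

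Members with at least 50% of 26-base windows elsewhere were left out after seeing the data, as were the 1.5-fold counts and counts by any amount added. The 24 kept gave 6 members 1.5-fold higher and 0 lower in N/N cells, 14 higher by any amount and 0 members 1.5-fold lower in +/N cells, and 19 higher in N/N against +/N cells. In shTbx3 cells 4 of the 24 were higher and 0 were 2-fold lower, since Bnip3 was left out. Fewer members are counted there, so the counts are lower by construction. A window of 50 kb gave 10 members near a Tbx3 site, a score of 100 or more gave 2, and scores above the median gave 3. Within the first run of columns 17 of 153 pairs (11.1%) were above 0.3, against 9.51% of all pairs. Within the second run 25 (16.3%) were, against 10.8%. Where not stated, the cause was not tested. No paired analysis was possible because each group has 1 library. The missing depth and the single library per group limit every bulk difference.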

Other observations

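Enzymes next to glycolysis gave no call at 2-fold in the bulk libraries, where 0.698 to 2.81% of all genes are called in each direction. Of 31 measured genes of pyruvate entry and the citric acid cycle, none differed by 2-fold in N/N against +/+ cells, in +/N against +/+ cells or in shTbx3 against shLuc cells. The same held for the 11 measured genes of the pentose phosphate path, which makes NADPH and ribose from glucose. At 1.5-fold, with log2 differences in brackets, Pdk4 (0.89) and Rpe (0.73) were higher in N/N than in +/+ cells. Pdk4 was 3.23% of the citric acid cycle list and Rpe 9.09% of the pentose phosphate list (background 5.45%). From the latter list, Pgls (-0.61) was lower in +/N than in +/+ cells (9.09%, background 4.91%). Rpe (-0.84) and Prps2 (-0.65) of the same list were lower in shTbx3 than in shLuc cells (18.2%, background 3.73%). The median log2 difference of the citric acid cycle list was 0.10 in N/N against +/+ cells and 0.11 in shTbx3 against shLuc cells, and that of the pentose phosphate list was -0.02 in N/N against +/+ cells and 0.14 in shTbx3 against shLuc cells. Among 11 measured housekeeping genes the medians were 0.09 in N/N against +/+ cells and -0.03 in shTbx3 against shLuc cells. Over all genes they were -0.03 in N/N against +/+ cells and 0.14 in shTbx3 against shLuc cells.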
